A study of Mus musculus with 18 samples.

Results

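The count table of striatal RNA held 55421 genes, and 10 of them, Htr1a, Htr1b, Htr1d, Htr1f, Htr2a, Htr2c, Htr3a, Htr4, Htr6 and Htr7, code for serotonin receptors. They were picked by gene symbol, through the Ensembl identifier of each row, and the rule used no measured value. The 4 mouse genotypes were compared at 12 to 14 months of age on the C57BL/6 background, which the study's methods specify as C57BL/6J. The 5 WT mice carried neither allele. The 5 zQ175 mice were heterozygous for a full-length knock-in of an expanded CAG repeat in the huntingtin gene, which models Huntington's disease. The 3 CK2a'(+/-) mice lacked 1 allele of Csnk2a2, the gene of the CK2a' catalytic subunit of protein kinase CK2. The 5 zQ175:CK2a'(+/-) mice carried the knock-in and lacked the CK2a' allele. Each mouse gave 1 library of bulk striatal tissue, in which fewer cells of a type and less RNA per cell cannot be told apart. By the study's methods the CK2a' line came from a mixed 129/SvEv and C57BL/6J stock. It was crossed with WT and zQ175 mice over more than 10 generations before the founders were chosen. The share of females differed between the genotypes, while the labels give no sex for a library. The study asked whether the loss of a CK2a' allele alters the striatal changes of zQ175 mice, and the comparisons below ask this of the serotonin receptor genes.

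Serotonin is released in the striatum by axons whose cell bodies lie in the raphe nuclei of the brainstem. The receptors of the Htr1 group couple to inhibitory Gi/o proteins, those of the Htr2 group to Gq and phospholipase C, and those of Htr4, Htr6 and Htr7 to Gs and adenylyl cyclase. Htr3a codes for a subunit of a cation channel that serotonin opens directly. Htr1b is known from the axon terminals of striatal projection neurons, and Htr2c is known for its very high level in the choroid plexus beside its neuronal expression.

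Total counts ranged from 13612381 to 22702547 per library. Levels are given as CPM, the counts of a gene scaled to a common library size by edgeR's TMM method. Csnk2a2 followed the labels, with 29.4 to 37.5 CPM in the 10 mice with both alleles and 14.7 to 19.9 CPM in the 8 mice with 1 allele. All 13 projection neuron markers, such as Drd1, Drd2 and Penk, had counts in every group, which fits the labelled tissue. Of the serotonergic neuron markers, Slc6a4 had no count in 17 of 18 libraries, Fev had none in 13 libraries and Tph2 had at most 21 counts. The other 2 genes of that list, Gata3 and En1, reached 70 and 32 counts, and the summed CPM of the list was 5.39 in zQ175 mouse 1 against 0.122 to 1.97 elsewhere. Several libraries stood apart. The summed CPM of 11 choroid plexus markers was 2140 in WT mouse 1, 1787 in WT mouse 3, 1019 in CK2a'(+/-) mouse 1 and 3212 in zQ175:CK2a'(+/-) mouse 2, against 12.8 to 23.5 in the other 14 libraries. The sum of 9 thalamic markers was highest in zQ175 mouse 1, at 1090, and the sum of 10 cortical excitatory neuron markers was highest in zQ175 mouse 5, at 402.

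The sequences just upstream of the start sites are shown for Htr1b and Htr2c, the members that passed a test below, and for Htr1d, a close relative of Htr1b. They are RefSeq promoter windows on GRCm38.p6, which matched 8 of the 10 members, cut to the 250 bases before the start and read 5′ to 3′ on the strand of the gene. Capitals mark the letters of a searched motif.
Htr1b, chr9:81633833-81634082, minus strand: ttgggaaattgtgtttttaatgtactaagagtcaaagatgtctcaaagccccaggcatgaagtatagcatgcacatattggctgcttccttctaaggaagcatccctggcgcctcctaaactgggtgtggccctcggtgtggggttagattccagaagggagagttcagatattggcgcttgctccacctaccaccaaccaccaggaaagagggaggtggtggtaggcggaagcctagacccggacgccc
Htr2c, chrX:146962263-146962512, plus strand: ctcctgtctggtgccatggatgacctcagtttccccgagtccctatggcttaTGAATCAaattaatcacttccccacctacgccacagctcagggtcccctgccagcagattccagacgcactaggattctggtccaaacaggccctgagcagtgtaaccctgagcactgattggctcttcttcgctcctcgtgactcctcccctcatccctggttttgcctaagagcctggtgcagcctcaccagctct
Htr1d, chr4:136423274-136423523, plus strand: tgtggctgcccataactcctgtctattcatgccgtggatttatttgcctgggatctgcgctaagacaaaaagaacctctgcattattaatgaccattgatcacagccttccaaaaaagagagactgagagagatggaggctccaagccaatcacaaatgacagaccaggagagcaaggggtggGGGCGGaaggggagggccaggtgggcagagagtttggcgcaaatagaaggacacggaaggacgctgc
In all, 6 motifs were searched on both strands: TATAAA, the cyclic AMP response element TGACGTCA, the AP-1 site TGANTCA, the GC box GGGCGG, the Egr core GCGTGGG and the NR4A site AAAGGTCA. None of these letters occurred in the Htr1b window. The Htr2c window held TGANTCA once, as TGAATCA at positions -198 to -192 from the start, a motif found in 6.75% of all 32851 windows of the same length. The Htr1d window held GGGCGG once, at positions -67 to -62, a motif found in 32.7% of all windows. RefSeq holds a second Htr1d window, chr4:136424362-136424611, which is not printed and held GGGCGG 3 times, with a GC content of 72.4% and 20 CpG dinucleotides. In the printed windows, GC contents of 52.4%, 55.6% and 51.6% for Htr1b, Htr2c and Htr1d lay near the median of 52.4% over all windows, and they held 6, 5 and 6 CpG dinucleotides beside a median of 6.

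The members spanned a wide range of levels in the WT striatum. Compared per kilobase of exon, Htr1b was highest at 10.1 ± 4.50 CPM per kilobase (SD, n = 5), followed by Htr2c at 5.79 ± 1.24 (SD, n = 5). These 2 genes held 55.9% of the summed level of the 10 members in WT mice. Htr1d, at 3.46 ± 0.996 CPM per kilobase (SD, n = 5), and Htr2a, at 2.44 ± 0.864 (SD, n = 5), came next. Htr1f, Htr6, Htr7 and Htr4 followed with means from 1.81 down to 1.22 CPM per kilobase. Htr1a, the autoreceptor of raphe neurons and a receptor of cortex and hippocampus, had 0.503 ± 0.244 CPM per kilobase (SD, n = 5), and Htr3a was lowest at 0.187 ± 0.121 (SD, n = 5). The highest mean was 54.2 times the lowest. Each neighbouring pair in this order had overlapping ranges over the WT mice. Compared within each mouse, Htr1d lay above Htr2a and Htr1a above Htr3a in all 5 WT mice. The other neighbouring pairs changed order in some of the WT mice. Htr1b and Htr2c held the first and second rank in all 4 genotypes. They overlapped with each other in WT, zQ175 and zQ175:CK2a'(+/-) mice and did not overlap in CK2a'(+/-) mice, in which Htr1b had 13.1 ± 2.29 and Htr2c 3.94 ± 1.21 CPM per kilobase (SD, n = 3). Without division by the exon length, Htr2c, whose exons span 9328 bases, came before Htr1b with 4724 bases.

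**Figure D1:**
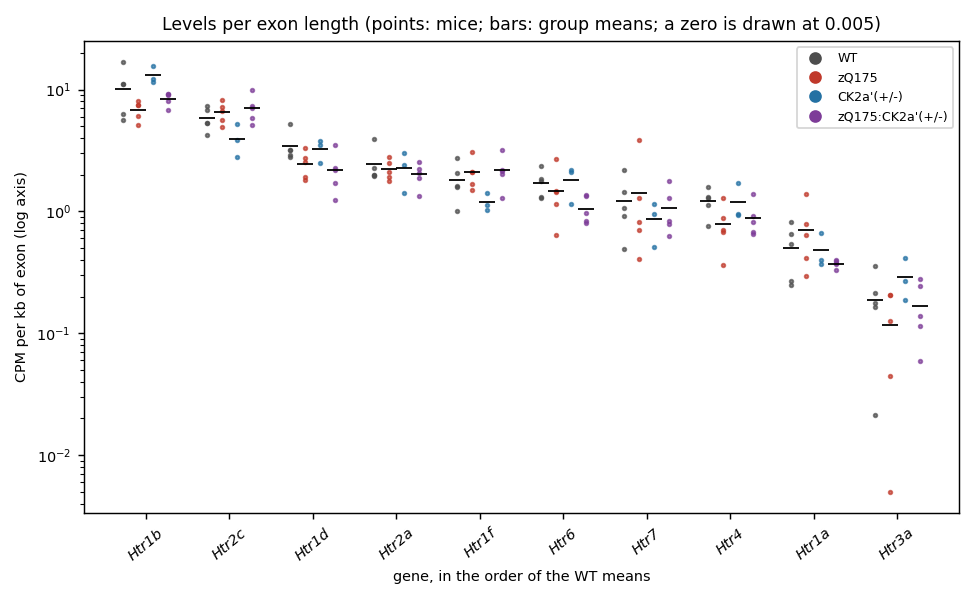
Level of each serotonin receptor gene in CPM per kilobase of exon (log axis), with a point for each mouse, a bar for each group mean and colours for the 4 genotypes; the mouse without a count for Htr3a is drawn at the bottom. Htr1b and Htr2c lie highest in every genotype and Htr3a lowest, from 10.1 for Htr1b down to 0.187 for Htr3a in WT means.

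The members differed widely in the counts behind these levels. Htr2c had 538 to 1439 counts per library and Htr1b 516 to 1418. Htr2a and Htr1d had 124 to 398 and 55 to 299 counts per library. The others were thinner, with 20 to 115 counts for Htr1a, 38 to 154 for Htr1f, 29 to 140 for Htr4, 27 to 99 for Htr6 and 24 to 278 for Htr7. Htr3a had 0 to 15 counts, and in the 1 library without a count, zQ175 mouse 2, a count of 0 allows a level of up to 3 counts. All 10 members passed the filter on low counts and entered the test, which covered 20914 genes.

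The effect of the zQ175 allele was first taken as the average of its effect on both CK2a' alleles and its effect on 1 CK2a' allele, which uses all 18 mice. Averaged this way, Htr1b fell and Htr2c rose, and no other member passed an FDR of 0.1 in edgeR's quasi-likelihood test. With a robust quasi-likelihood fit both just missed, at an FDR of 0.102 for Htr1b and 0.111 for Htr2c and the same log2 fold changes. The count of 1 member higher stands beside 2.11% of the 20914 genes tested, and the count of 1 member lower beside 2.78%. In all, 2 of 10 members passed against 4.9% of all genes, and 6 of 10 had an unadjusted p under 0.05 against 16.2% of all genes. Of these 6, Htr1b, Htr1d, Htr4 and Htr6 were lower and Htr2c and Htr1f were higher with the zQ175 allele. The median log2 fold change of the members was -0.33, beside 0.01 over all genes tested. DESeq2 passed 3 members, Htr1b, Htr2c and Htr1d, beside 8.92% of the 16971 genes for which it gave an adjusted p.

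**Figure D2:**
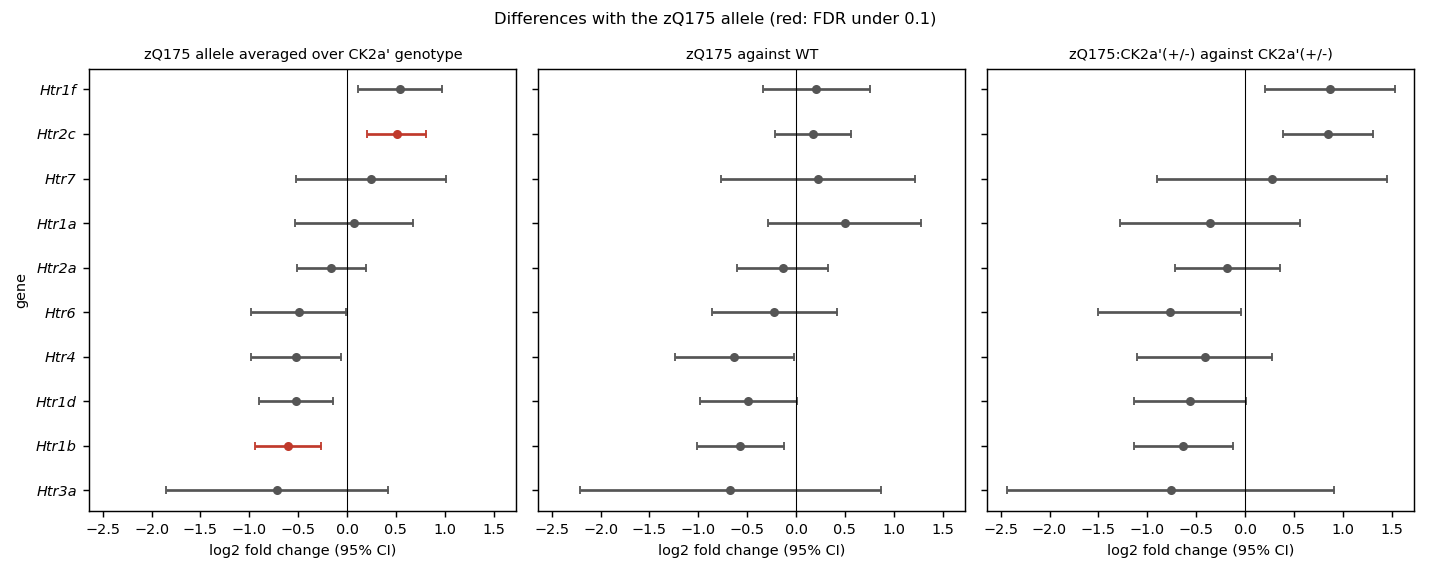
Log2 fold change of each member with its 95% confidence interval for the averaged effect of the zQ175 allele (left), zQ175 against WT (middle) and zQ175:CK2a'(+/-) against CK2a'(+/-) (right), with red for FDR under 0.1. Htr1b at -0.60 and Htr2c at 0.51 are the only red points, in the averaged effect, and Htr3a has the widest interval.

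Among the Gi/o-coupled receptors, Htr1b carried the largest part of the level. Htr1b (ENSMUSG00000049511, GRCm38 chromosome 9, 81628291 to 81633828, minus strand, 2 exon blocks) measured 52.4, 79.2, 52.0, 29.5 and 26.6 CPM in WT mice 1 to 5. In zQ175 mice 1 to 5 it measured 24.2, 37.8, 35.5, 35.3 and 28.4 CPM. WT mice 1 to 3 lay above all zQ175 mice, and WT mice 4 and 5 lay within the zQ175 range. It measured 57.3, 54.1 and 74.2 CPM in CK2a'(+/-) mice 1 to 3 and 42.6, 43.6, 43.2, 38.1 and 32.0 CPM in zQ175:CK2a'(+/-) mice 1 to 5. The CK2a'(+/-) mice did not overlap with either group that carried the zQ175 allele. All 10 mice with the allele lay below the median of 53.2 CPM of the 8 mice without it. The averaged log2 fold change was -0.60 (SE 0.16, 95% confidence interval -0.94 to -0.26, FDR 0.0526), a ratio of 0.659. Taken apart, it was -0.57 (SE 0.22, FDR 0.235) for zQ175 against WT and -0.63 (SE 0.24, FDR 0.389) for zQ175:CK2a'(+/-) against CK2a'(+/-), neither of which passed. The value against WT ran from -0.72 to -0.33 on leaving out each mouse, and it was -0.33 without WT mouse 2, the highest of the 18 mice. Without CK2a'(+/-) mouse 3, the averaged value was -0.53 and no longer passed (FDR 0.185).

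The other Gi/o-coupled members did not pass in the averaged effect. Htr1d (ENSMUSG00000070687, chromosome 4, 136423524 to 136444398, plus strand), which shares many ligands with Htr1b, measured 8.97, 16.7, 10.2, 10.2 and 9.31 CPM in WT mice 1 to 5. It measured 5.81, 8.81, 6.15, 10.7 and 8.12 CPM in zQ175 mice 1 to 5. The ranges overlapped, although 4 zQ175 mice lay below the lowest WT mouse. In CK2a'(+/-) mice Htr1d measured 11.2, 8.01 and 12.0 CPM, and in zQ175:CK2a'(+/-) mice 11.3, 3.95, 5.51, 7.01 and 7.21 CPM. The averaged log2 fold change of Htr1d was -0.52 (SE 0.18, FDR 0.137), and it passed in edgeR without zQ175:CK2a'(+/-) mouse 1 (log2 fold change -0.64, FDR 0.0553), with no filter on low counts (FDR 0.0838) and with the Xist level as a covariate (FDR 0.0893). Htr1f (ENSMUSG00000050783, chromosome 16, 64924729 to 65105854, minus strand), the target of the migraine drug lasmiditan, pointed the other way. It measured 4.09, 4.19, 2.59, 5.29 and 7.14 CPM in WT mice and 3.84, 7.995, 5.47, 5.47 and 4.30 CPM in zQ175 mice. Its levels were 2.93, 2.63 and 3.67 CPM in CK2a'(+/-) mice and 8.27, 3.30, 5.20, 5.57 and 5.59 CPM in zQ175:CK2a'(+/-) mice. The CK2a'(+/-) mice lay below all zQ175 mice and overlapped with 1 zQ175:CK2a'(+/-) mouse. The averaged log2 fold change of Htr1f was 0.54 (SE 0.21, FDR 0.184), and without WT mouse 5 it was 0.64 and passed (FDR 0.0944). Htr1a (ENSMUSG00000021721, chromosome 13, 105443639 to 105448122, plus strand) had an averaged log2 fold change of 0.07 (SE 0.29, FDR 0.944).

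**Figure D3:**
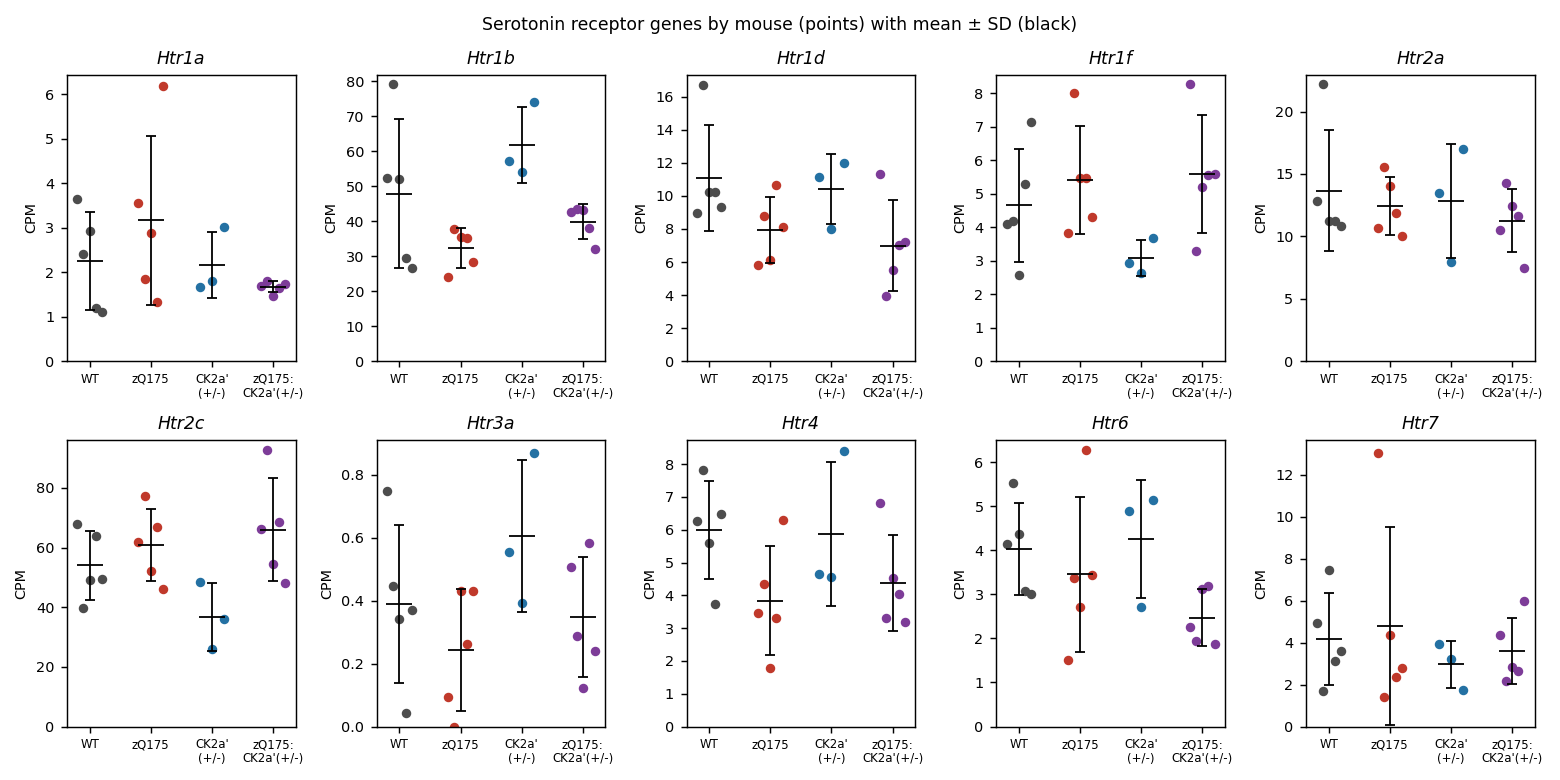
CPM of the 10 members (1 panel each, axes from 0) in the 4 genotypes, with a point for each mouse and a black bar and whiskers for the mean ± SD. Htr1b is lower and Htr2c mostly higher in the 2 groups with the zQ175 allele, single mice stand apart for Htr1d and Htr2a in WT and for Htr7 in zQ175, and the ranges of most groups overlap.

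Of the Gq-coupled receptors, Htr2c moved with the zQ175 allele and Htr2a did not pass. Htr2c (ENSMUSG00000041380, GRCm38 chromosome X, 146962513 to 147197277, plus strand, 8 exon blocks) measured 67.8, 39.7, 49.2, 63.9 and 49.4 CPM in WT mice 1 to 5. It measured 62.0, 77.1, 52.2, 66.8 and 46.1 CPM in zQ175 mice 1 to 5, a range that overlapped widely with WT. In CK2a'(+/-) mice 1 to 3 it was lowest, with 48.4, 25.9 and 35.9 CPM, and in zQ175:CK2a'(+/-) mice 1 to 5 it measured 66.4, 92.7, 54.4, 68.6 and 48.1 CPM. The last 2 groups touched, because the lowest double mutant lay just under the highest CK2a'(+/-) mouse. Of the 10 mice with the allele, 8 lay above the median of 48.8 CPM of the 8 mice without it. The averaged log2 fold change was 0.51 (SE 0.14, 95% confidence interval 0.21 to 0.81, FDR 0.0648), a ratio of 1.42. The effects behind this average were 0.85 (SE 0.22, FDR 0.126) in the mice with 1 CK2a' allele and 0.17 (SE 0.19, FDR 0.734) between zQ175 and WT, where it ran from 0.0604 to 0.25 on leaving out each mouse. The difference between those 2 effects, the interaction, was 0.67 (SE 0.29, FDR 0.916) and did not pass. The averaged call of Htr2c was lost on leaving out 1 of 5 libraries: WT mouse 3 (log2 fold change 0.49, FDR 0.109), zQ175 mouse 2 (0.44, FDR 0.107), CK2a'(+/-) mouse 2 (0.41, FDR 0.179), CK2a'(+/-) mouse 3 (0.50, FDR 0.176) or zQ175:CK2a'(+/-) mouse 2 (0.43, FDR 0.103). Htr2a (ENSMUSG00000034997, chromosome 14, 74640840 to 74709494, plus strand), the cortical target of hallucinogens, measured 13.7 ± 4.84 CPM in WT mice (SD, n = 5) and 12.4 ± 2.33 CPM in zQ175 mice (SD, n = 5). It measured 12.8 ± 4.56 CPM in CK2a'(+/-) mice (SD, n = 3) and 11.3 ± 2.53 CPM in zQ175:CK2a'(+/-) mice (SD, n = 5). Its averaged log2 fold change was -0.16 (95% confidence interval -0.51 to 0.19, FDR 0.710), and it ran from -0.29 to -0.0330 on leaving out each mouse.

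Among the Gs-coupled receptors, none passed. Htr4 (ENSMUSG00000026322, chromosome 18, 62324204 to 62496577, plus strand), known from projection neurons and as a drug target of the gut, measured 6.28, 7.82, 5.58, 3.73 and 6.49 CPM in WT mice and 3.47, 4.35, 1.78, 3.30 and 6.29 CPM in zQ175 mice. It measured 4.65, 4.55 and 8.41 CPM in CK2a'(+/-) mice and 6.81, 3.30, 4.53, 4.03 and 3.19 CPM in zQ175:CK2a'(+/-) mice. Its ranges overlapped in every pair of groups, and 5 of the 10 mice with the zQ175 allele lay below all 8 mice without it. The averaged log2 fold change of Htr4 was -0.52 (SE 0.22, FDR 0.235), and zQ175 against WT gave -0.63 (SE 0.29, FDR 0.340). Htr6 (ENSMUSG00000028747, chromosome 4, 139061108 to 139075570, minus strand), a receptor with much of its expression in the striatum, measured 4.14, 5.53, 4.36, 3.06 and 3.01 CPM in WT mice and 1.50, 3.36, 2.71, 6.26 and 3.44 CPM in zQ175 mice. It measured 4.90, 2.71 and 5.14 CPM in CK2a'(+/-) mice and 2.25, 1.94, 3.12, 3.18 and 1.86 CPM in zQ175:CK2a'(+/-) mice. All double mutants but 2 lay below the lowest CK2a'(+/-) mouse, while zQ175 mouse 4 was the highest of the 18 mice. The averaged log2 fold change of Htr6 was -0.50 (SE 0.23, FDR 0.296). Htr7 (ENSMUSG00000024798, chromosome 19, 35958734 to 36057507, minus strand), a receptor of thalamus and hippocampus, measured 4.16 ± 2.19 CPM in WT mice (SD, n = 5) and 4.79 ± 4.73 CPM in zQ175 mice (SD, n = 5). It measured 2.97 ± 1.13 CPM in CK2a'(+/-) mice (SD, n = 3) and 3.60 ± 1.58 CPM in zQ175:CK2a'(+/-) mice (SD, n = 5). Its averaged log2 fold change was 0.25 (95% confidence interval -0.52 to 1.02, FDR 0.813). The channel subunit gene Htr3a (ENSMUSG00000032269, chromosome 9, 48899213 to 48911099, minus strand) reached at most 0.868 CPM. Its averaged log2 fold change of -0.72 had a 95% confidence interval from -1.85 to 0.42 (FDR 0.568), so no change was detected, and a large one in either direction is not excluded.

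In the other 7 comparisons edgeR passed no member. For zQ175 against WT, 0 of 10 members passed beside 1.1% of all genes, and 2, Htr1b and Htr4, had an unadjusted p under 0.05 beside 13.9% of all genes. For zQ175:CK2a'(+/-) against CK2a'(+/-), 0 passed beside 0.593%, and 4, Htr2c, Htr1f, Htr1b and Htr6, had an unadjusted p under 0.05 beside 9.19%. Here DESeq2 passed 1 member, Htr2c (log2 fold change 0.85, FDR 0.0166), beside 1.47% of the genes with an adjusted p, while in the other 6 comparisons it also passed 0. The log2 fold changes of Htr1f and Htr6 in zQ175:CK2a'(+/-) against CK2a'(+/-) were 0.87 (SE 0.32, FDR 0.358) and -0.77 (SE 0.35, FDR 0.510). For zQ175:CK2a'(+/-) against WT, 0 passed beside 0.0143%, and 2 had an unadjusted p under 0.05 beside 9.13%. These were Htr1d at -0.66 (SE 0.24, FDR 0.413) and Htr6 at -0.69 (SE 0.31, FDR 0.505). The comparisons of zQ175 and of zQ175:CK2a'(+/-) against WT share the WT mice, and both comparisons of zQ175:CK2a'(+/-) share those mice, so their values are not independent.

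The loss of 1 CK2a' allele moved no member past the threshold. Within the zQ175 mice, zQ175 against zQ175:CK2a'(+/-) passed 0 of 10 members beside 0.0143% of all genes, and 1 member had an unadjusted p under 0.05 beside 6.27%. That member was Htr1a, which measured 3.56, 1.85, 2.89, 1.32 and 6.18 CPM in zQ175 mice and 1.69, 1.79, 1.47, 1.65 and 1.74 CPM in zQ175:CK2a'(+/-) mice, a log2 fold change of 0.93 (SE 0.38, FDR 0.713). The ranges overlapped, since zQ175 mouse 4 lay below all double mutants. Without zQ175 mouse 5, the highest for Htr1a, the difference was 0.53 (FDR 0.896). That mouse also had the highest summed CPM of cortical markers and of hippocampal neuron markers, 229 for the latter against 136 to 183 in the other 17 mice, and the part of these in the Htr1a value was not tested. For Htr1b the difference of zQ175 minus zQ175:CK2a'(+/-) was -0.31 (95% confidence interval -0.76 to 0.14, FDR 0.872) and for Htr2c it was -0.12 (95% confidence interval -0.50 to 0.27, FDR 0.955). Neither passed, and a negative value here means a higher level in the mice that lack the allele. The comparisons that follow have the opposite sign, with a positive value for a higher level after the loss. CK2a'(+/-) against WT passed 0 beside 0.0143%, and 1, Htr2c, had an unadjusted p under 0.05 beside 4.48%, with a log2 fold change of -0.56 (SE 0.22, FDR 0.999). Htr1b differed there by 0.37 (SE 0.24, FDR 0.999). On leaving out each mouse, these values ran from -0.81 to -0.36 for Htr2c and from 0.22 to 0.63 for Htr1b. Averaged over the zQ175 genotype, the loss of the allele passed 0 beside 0.0335%, and 1, Htr1b, had an unadjusted p under 0.05 beside 5.31%, at 0.34 (SE 0.16, FDR 0.931). Htr2c differed in this average by -0.22 (SE 0.14, FDR 0.973), and by -0.35 to -0.12 on leaving out each mouse. The interaction passed 0 beside 0.00478%, and 1, Htr2c, had an unadjusted p under 0.05 beside 5.39%. For Htr1b the interaction was -0.06 (SE 0.33, FDR 0.997).

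Markers of other cells moved with some of these values. The summed CPM of the 13 projection neuron markers ran from 3196 to 7510 in WT, from 1767 to 3574 in zQ175, from 5311 to 7433 in CK2a'(+/-) and from 2924 to 4128 in zQ175:CK2a'(+/-) mice, and 10 of the 13 genes passed as lower with the zQ175 allele in the averaged effect, beside 2.78% of all genes. Htr1b, which is not on that list, amounted to 0.964% ± 0.103 of the summed marker CPM in WT mice (SD, n = 5) and 1.10% ± 0.167 in zQ175 mice (SD, n = 5). It amounted to 1.03% ± 0.0435 in CK2a'(+/-) mice (SD, n = 3) and 1.11% ± 0.135 in zQ175:CK2a'(+/-) mice (SD, n = 5). In the means this share was no lower with the zQ175 allele than without it. The markers it is taken over were themselves lower with the allele (median log2 fold change -0.73). The share therefore cannot tell fewer projection neurons from less marker RNA per cell, and the cause of the Htr1b difference was not tested. For Htr2c, the libraries rich in choroid plexus RNA included the highest of the group in WT mice, at 67.8 CPM, in CK2a'(+/-) mice, at 48.4 CPM, and in zQ175:CK2a'(+/-) mice, at 92.7 CPM. Without the 4 libraries rich in choroid plexus markers, Htr2c measured 51.0 ± 12.2 CPM in WT (SD, n = 3), 60.8 ± 12.2 in zQ175 (SD, n = 5), 25.9 and 35.9 in the 2 CK2a'(+/-) mice left, and 59.3 ± 9.77 in zQ175:CK2a'(+/-) mice (SD, n = 4). In that fit its averaged log2 fold change was 0.60 (FDR 0.103) and that of Htr1b was -0.60 (FDR 0.239), with 126 genes passing (0.591%) in place of 1024. The unadjusted p of Htr2c in the quasi-likelihood test was 0.00065 there, beside 0.0020 with all 18 libraries. That of Htr1b was 0.0096 there, beside 0.0013 with all 18 libraries.

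**Figure D4:**
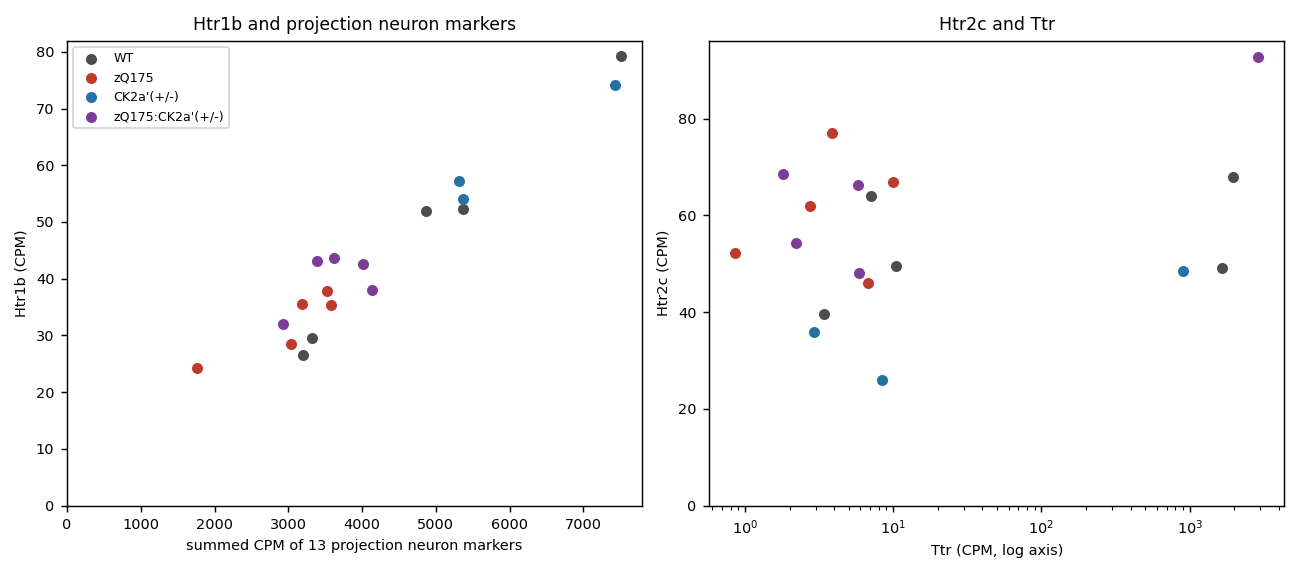
Left, Htr1b against the summed CPM of 13 projection neuron markers, both in CPM from 0, and right, Htr2c in CPM against Ttr, the leading choroid plexus gene, on a log axis, with a point for each of the 18 mice coloured by genotype. The mice with the highest marker sums, 1 WT and 1 CK2a'(+/-), also have the highest Htr1b, and the 4 mice with the highest Ttr, from 908 to 2904 CPM, hold Htr2c levels from 48.4 to 92.7 CPM.

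Leaving out zQ175 mice 1 and 5, which were highest for the thalamic and the cortical markers, Htr2c passed (log2 fold change 0.56, FDR 0.0565) and Htr1b did not (-0.51, FDR 0.128), beside 3.59% of all genes. With the thalamic marker level as a covariate, 4 members passed, Htr1b (FDR 0.0112), Htr2c (FDR 0.0404), Htr1d (FDR 0.0476) and Htr4 (FDR 0.0725), beside 8.27% of all genes in that fit. The part of the tissue composition in these differences was not tested otherwise. The gene D430036J16Rik lies on the strand opposite to Htr1b and shares 852 exon bases with it, and how the counting treated such reads is not given in the sources used here.

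The genes whose log2 CPM followed each member most closely over the 18 libraries were named by Pearson's r, as a description of libraries that share tissue composition and depth. Htr1b was closest to the projection neuron genes Pde10a (r = 0.970), Adcy5 (r = 0.963) and Drd2 (r = 0.960). Htr2c was closest to Fndc3a (r = 0.830), Dleu7 (r = 0.823) and Fgd4 (r = 0.769). None of these is a choroid plexus marker of the list, but the level of that list as a whole correlated with Htr2c at r = 0.298 over the 18 libraries, and at r = 0.608 once the group means were taken off. Htr1a was closest to Chgb (r = 0.857), Chrm3 (r = 0.823) and Arhgef17 (r = 0.800), and Chrm3 is a muscarinic acetylcholine receptor gene. Htr1d was closest to Hsdl1 (r = 0.870), Efna3 (r = 0.813) and Fam57a (r = 0.807). Htr1f was closest to Trp53i11 (r = 0.840), Cdh22 (r = 0.838) and Pcdhb13 (r = 0.795). None of the genes closest to these 3 members is on the projection neuron list. Htr2a was closest to Calb1 (r = 0.897), Gabrg3 (r = 0.823) and Adcy3 (r = 0.819), with calbindin coded by Calb1. Htr4 was closest to Mmd2 (r = 0.850), Gm36737 (r = 0.835) and Fam163b (r = 0.804). Htr6 was closest to Akt2 (r = 0.806), Thumpd1 (r = 0.802) and Gm37233 (r = 0.788). Htr7 was closest to Gnas (r = 0.879), Grip2 (r = 0.877) and Disp2 (r = 0.875). The zQ175 mouse with the highest Htr7, mouse 1, also had the highest Gnas level, 703 CPM beside a zQ175 median of 386 CPM. The few counts of Htr3a were closest to Mapkbp1 (r = 0.848), Lrp8os2 (r = 0.845) and Tmem109 (r = 0.833). The level of the projection neuron list as a whole correlated with Htr1b at r = 0.937, with Htr6 at r = 0.698, with Htr1d at r = 0.618, with Htr3a at r = 0.596, with Htr4 at r = 0.584 and with Htr2a at r = 0.496. With the group means taken off, these values were 0.906, 0.750, 0.528, 0.450, 0.372 and 0.650, in the same order. Over the other members the r with this list ran from -0.487 for Htr7 to 0.0179 for Htr1a. For the members at r = 0.496 or more, no other marker list gave a higher r over the 18 libraries, but others came near for some. A list of astrocyte markers correlated with Htr1b at r = 0.808 and with Htr4 at r = 0.568. With the group means taken off, a list of cholinergic interneuron markers gave r = 0.727 for Htr6 and 0.545 for Htr1d, and the cortical excitatory neuron list gave -0.712 for Htr2a. Htr7 correlated with the thalamic list at r = 0.650, and at r = 0.694 with the group means taken off.

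Other genes of serotonin signalling were read from lists. Of the 4 further receptor genes, Htr2b and Htr3b had at most 7 and 8 counts in a library and were not tested, while Htr5a and Htr5b were tested and did not pass in any comparison. Htr5a, a Gi/o-coupled receptor, measured 7.05 ± 2.26 CPM in WT and 8.62 ± 2.44 CPM in zQ175 mice (SD, n = 5 each). Of 9 genes of serotonin synthesis, transport and breakdown, 7 were tested, and in the averaged zQ175 effect 1 passed, as lower, beside 2.78% of all genes and with a median log2 fold change of 0.05 for the list. It was Slc22a3, a low-affinity carrier of serotonin and other amines, which fell by 0.78 on the log2 scale (SE 0.16, FDR 0.0155), and in zQ175:CK2a'(+/-) against CK2a'(+/-) it fell by 1.07 (SE 0.24, FDR 0.0733). In zQ175 against WT its log2 fold change was -0.48 (FDR 0.333) and in CK2a'(+/-) against WT 0.66 (FDR 0.999), from 4.87 ± 1.33 CPM in WT and 3.48 ± 0.332 CPM in zQ175 mice (SD, n = 5 each) and 7.68 ± 1.55 CPM in CK2a'(+/-) mice (SD, n = 3). The monoamine oxidase genes Maoa and Maob gave 0.05 (FDR 0.856) and -0.08 (FDR 0.846).

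Of 23 genes that couple to or partner the receptors, 1 passed as higher and 2 as lower in the averaged zQ175 effect, beside 2.11% and 2.78% of all genes, with a median log2 fold change of 0.01. DESeq2 passed 5 of the 23, beside 8.92% of the genes with an adjusted p. S100a10, whose protein p11 binds the Htr1b and Htr4 receptors, fell by 1.24 on the log2 scale in that average (SE 0.18, FDR 0.00158). It measured 10.3 ± 3.28 CPM in WT and 4.96 ± 1.56 CPM in zQ175 mice (SD, n = 5 each), 13.002 ± 4.13 CPM in CK2a'(+/-) mice (SD, n = 3) and 4.80 ± 1.005 CPM in zQ175:CK2a'(+/-) mice (SD, n = 5). Between these groups, it fell by 1.05 in zQ175 against WT (SE 0.24, FDR 0.0613) and fell by 1.43 in zQ175:CK2a'(+/-) against CK2a'(+/-) (SE 0.27, FDR 0.0335). In zQ175:CK2a'(+/-) against WT its log2 fold change was -1.09 and did not pass (SE 0.24, FDR 0.204). Adcy5, the main adenylyl cyclase of the striatum, fell by 0.62 (SE 0.14, FDR 0.0207). Mpdz, whose PDZ protein MUPP1 binds the Htr2c receptor, rose by 0.39 (SE 0.09, FDR 0.0221), and in zQ175 against WT it rose by 0.47 (SE 0.11, FDR 0.0772). The Gq alpha gene Gnaq gave 0.20 (FDR 0.120), and the RNA editing genes Adar and Adarb1, whose enzymes edit the Htr2c transcript, gave -0.03 (FDR 0.856) and -0.07 (FDR 0.925). Without the libraries rich in choroid plexus RNA, S100a10 alone of these 4 genes passed the averaged comparison, and Slc22a3 (-0.71, FDR 0.164), Adcy5 (-0.62, FDR 0.161) and Mpdz (0.42, FDR 0.105) did not, at log2 fold changes near those of all 18 libraries. In zQ175 against WT, the call of S100a10 was lost without WT mouse 1 or 3 or zQ175 mouse 1, 3, 4 or 5 (FDR up to 0.190), and that of Mpdz without WT mouse 1 or 3, zQ175 mouse 1, 2 or 5 or zQ175:CK2a'(+/-) mouse 3 (FDR up to 0.181). In zQ175:CK2a'(+/-) against CK2a'(+/-), the call of S100a10 was lost without CK2a'(+/-) mouse 2 or 3 (FDR up to 0.228), and that of Slc22a3 without any of the CK2a'(+/-) mice or zQ175:CK2a'(+/-) mouse 1, 2, 4 or 5 (FDR up to 0.289). With the replicate number as a block, the calls between single groups were lost, with log2 fold changes of -1.04 for S100a10 (FDR 0.104) and 0.46 for Mpdz (FDR 0.129) in zQ175 against WT, and of -1.29 for S100a10 (FDR 0.199) and -1.01 for Slc22a3 (FDR 0.287) in zQ175:CK2a'(+/-) against CK2a'(+/-). In zQ175 against WT, both calls were also lost with only these 2 groups in the fit (FDR 0.153 each), on leaving out zQ175 mice 1 and 5 (S100a10 -0.94, FDR 0.270, and Mpdz 0.30, FDR 0.376) and without the choroid plexus libraries (FDR 0.496 each, with S100a10 at -0.74), and that of Mpdz with the Xist covariate (FDR 0.115). Without the choroid plexus libraries, Slc22a3 also missed in zQ175:CK2a'(+/-) against CK2a'(+/-) (FDR 0.445). No gene of these lists passed in a comparison of CK2a' genotypes.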

How the data were processed

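RNA from the striatum of 18 mice was sequenced, with 1 library per mouse and no pooling, from total RNA with a stranded kit. After trimming (Trimmomatic), the authors mapped reads to GRCm38 using HISAT2 2.1.0, dropped duplicate, unmapped and poorly mapped ones, and deposited raw counts per Ensembl gene from Subread 1.6.2, and the deposited exon lengths are other values, in bases. The strand setting of the counting is not given in the sources used here. No result of the authors' own tests was used.

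Counts were tested with edgeR 4.0.16 in R 4.3.3 (quasi-likelihood test, legacy dispersion method, TMM, genes kept by filterByExpr, all 18 libraries in 1 fit with genotype as the only factor). P-values were adjusted over all 20914 genes by the Benjamini-Hochberg method and a gene passed at FDR under 0.1. DESeq2 1.42.0 was an alternative. An averaged effect is the equally weighted mean of 2 log2 differences. The SE of a log2 fold change was its size divided by the root of the F statistic. The scripts were tested on simulated data. P-values measure the spread between mice, and a count of 0 was read as allowing 3 counts, for counting error only.

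The members, gene lists and tests were chosen with earlier results of these data known. All members were described, and of the other lists each gene that passed and a few others were named. For likeness, the closest genes by Pearson's r of log2 CPM (prior count 2) among genes with a mean of at least 20 counts were taken. Symbols matched 55154 of 55421 identifiers. The alternatives were DESeq2, its size factors, other filters on low counts, FDR 0.05, a robust fit, the replicate block, the level of Xist as a covariate, only the groups compared and leaving out each mouse. Leaving out the libraries rich in choroid plexus RNA, defined as over 100 summed CPM of its markers, leaving out zQ175 mice 1 and 5, the thalamic covariate and edgeR's newer quasi-likelihood method were added after the data were seen. Same-numbered mice of different groups did not deviate together.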

Additional observations from a re-analysis of the deposited data

Results flagged for a closer look

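Of 30 sets of 5 mice examined, 10 members in 3 genotypes, 3 held a mouse that lay far from the rest by Dixon's criterion, which chance meets in about 1 of 20 sets. Htr7 in zQ175 mouse 1 measured 13.03 CPM against at most 4.37 CPM in the other 4 zQ175 mice. The same mouse had the highest summed level of thalamic markers, 1090 CPM against 64.0 to 373 CPM in the other zQ175 mice, and the averaged log2 fold change of Htr7 with the zQ175 allele turned from 0.25 to -0.17 without it. Htr1d in WT mouse 2 measured 16.7 CPM against at most 10.2 CPM in the other WT mice, and Htr2a in the same mouse measured 22.2 CPM against at most 12.8 CPM. WT mouse 2 also had the highest sum of projection neuron markers, 7510 CPM against 3196 to 5369 CPM in the other WT mice. The part of either marker sum in these values was not tested. No member passed the test of the interaction between the zQ175 and CK2a' genotypes.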

How the results depend on the processing

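In the averaged zQ175 effect 2 members passed. The count was 0 at FDR 0.05, 0 with a robust quasi-likelihood fit, 0 without the choroid plexus libraries (14 libraries, in which Htr2c gave 0.60 and Htr1b -0.60), 1 on leaving out zQ175 mice 1 and 5, 4 with the thalamic covariate and 0 to 3 on leaving out each mouse. DESeq2, its size factors in edgeR, both other filters on low counts, the Xist covariate and edgeR's newer quasi-likelihood method gave 2 or 3 and kept Htr1b and Htr2c, and the replicate block gave 1. In zQ175:CK2a'(+/-) against CK2a'(+/-) no member passed, while the count was 1 with DESeq2, 1 with no filter on low counts, 1 on leaving out zQ175 mice 1 and 5, 2 with only these groups in the fit, 2 with the thalamic covariate and 0 to 1 on leaving out each mouse. In zQ175 against WT it was 1, Htr1b, with no filter. In the other 5 comparisons it was 0 under every setting run. The cause of these shifts was not tested.

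With the replicate number as a block, 1 member, Htr2c, passed the averaged comparison (Htr1b -0.48, FDR 0.122), and the block moved the genes passing from 1024 to 519. Mice of the same number did not deviate together (24 pairs, r from -0.14 to 0.12), so the numbers are not a pairing. The block also reversed the interaction of Htr1b, to 0.0474, a value that ran from -0.32 to 0.0924 on leaving out each mouse.

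The difference of Htr2c between zQ175 and zQ175:CK2a'(+/-) turned to 0.0348 without the choroid plexus libraries and ran from -0.21 to 0.0352 on leaving out each mouse. On leaving out zQ175 mice 1 and 5, the averaged zQ175 effect turned to -0.25 for Htr1a and to -0.17 for Htr7. On leaving out each mouse, it ran from -0.13 to 0.22 for Htr1a and from -0.17 to 0.40 for Htr7. Over all settings, the number of genes passing ran from 0 to 855 in zQ175 against WT (230 as reported), from 6 to 586 in zQ175:CK2a'(+/-) against CK2a'(+/-) (124) and from 126 to 1729 in the averaged effect (1024). It ran from 1 to 154 in zQ175:CK2a'(+/-) against WT (3), from 1 to 51 in zQ175 against zQ175:CK2a'(+/-) (3), from 0 to 19 in CK2a'(+/-) against WT (3) and in the interaction (1), and from 2 to 24 for the averaged CK2a' loss (7). In the order of WT levels, 3 of 10 members kept their rank without division by the exon length, and all 10 with DESeq2's size factors. At under 30 counts in some libraries, Htr1a, Htr3a, Htr4, Htr6 and Htr7 had wide intervals.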
